A study of Mus musculus with 10 samples.

Results

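The genes encoding SCL, its partners in a DNA-binding complex and its close relative LYL1 were examined for 4 histone marks. The cells were blood-fated mesoderm with and without functional SCL. The 7 genes were *Tal1* (encoding SCL), *Lyl1*, *Gata1*, *Gata2*, *Lmo2*, *Ldb1* and *Tcf12*, of 22359 protein-coding genes in the GENCODE M1 annotation of the mouse mm9 (NCBIM37) genome. They were chosen by name as SCL and genes linked to its complex, with earlier results of these data known. All 7 are called complex genes below. A peak was assigned to a gene when it overlapped the gene body or came within 2.5 kb of a protein-coding transcription start site (TSS). This gave 58 peaks, of 70826 in the 8 peak lists. A gene was called for a mark when a peak came within 2.5 kb of a TSS.

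At day 4 of differentiation, mCherry-positive cells had been sorted from embryoid bodies, the aggregates that embryonic stem cells form as they differentiate. In the WT line (Scl:mcherry), mCherry had been inserted into 1 *Scl* allele of J1 embryonic stem cells and SCL remained functional. The Delta line (Scl d/d:mcherry) was made from that reporter line and lacks the basic helix-loop-helix (bHLH) region of SCL on both alleles. Both lines thus carry the mCherry insertion, so *Tal1* is at once a measured gene, the gene used for sorting and the edited gene. Both came from clones grown from single cells. The sorted cells were mixed with *Drosophila* S2 cells, and ChIP was done for H3K4me3, H3K27ac, H3K27me3 and H2AK119ub, with 1 library per mark and genotype. Genotype and library cannot be told apart in such a design, no test between genotypes was possible, and all differences given are between single libraries. The peak lists hold no read numbers. The study gives read totals for its libraries, which were not used here.

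SCL is a bHLH transcription factor required to specify blood from mesoderm. It pairs with an E protein such as HEB, the product of *Tcf12*, and the pair reads the E-box, CANNTG. LMO2 does not touch DNA itself and bridges this pair to LDB1 and to a GATA factor, which reads GATA. LDB1 can bind a further LDB1 molecule and so bring distant elements together. *Lyl1* encodes a close relative of SCL. GATA2 acts in early blood progenitors and GATA1 in red cell and megakaryocyte development. H3K4me3 marks promoters and H3K27ac active promoters and enhancers. H3K27me3 and H2AK119ub are laid down by the Polycomb complexes PRC2 and PRC1.

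The sequences below show the places the results turn on, read from NCBIM37. The composite motif of the complex is an E-box followed by GATA after 8, 9 or 10 bases. Within the genes, their TSS windows and the H3K27ac peaks up to 50 kb away, 1 composite motif lay inside a WT H3K27ac peak. It lies 39406 bp downstream of the first *Tal1* TSS, at chr4:114768431-114768461 (minus strand), outside any annotated exon. A second was chosen after its values were seen, as the nearest to a WT H3K27ac peak among the 5 composites of *Gata2*. It lies in a *Gata2* intron at chr6:88153173-88153203 (plus strand), 9294 bp downstream of the first TSS, inside none of the 8 peak lists and 548 bp from the WT H3K27ac peak. Capitals mark the E-box and GATA.
Tal1 downstream composite: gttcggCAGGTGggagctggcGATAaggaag
Gata2 intron composite: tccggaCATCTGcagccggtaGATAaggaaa

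Promoters of genes with a WT H3K27ac peak at the TSS are shown next, as the 250 bases before the TSS nearest to the peak. In *Tcf12* the peak starts 47 bp after the TSS, outside the bases shown. *Gata2*, which had its peak in WT alone and 1361 bp from the nearest TSS, is not shown. Capitals mark E-boxes (CANNTG) and GATA motifs (AGATAA or AGATAG, and TGATAA or TGATAG), on either strand. The first 3 belong to genes with the H3K27ac peak in WT alone and the last 2 to genes with it in both genotypes. Their positions are chr4:114728781-114729030 (plus strand), chr8:87225106-87225355 (plus), chr2:103810036-103810285 (plus), chr19:46119705-46119954 (minus) and chr9:71959627-71959876 (minus). No annotated exon lies in these windows.
Tal1 promoter: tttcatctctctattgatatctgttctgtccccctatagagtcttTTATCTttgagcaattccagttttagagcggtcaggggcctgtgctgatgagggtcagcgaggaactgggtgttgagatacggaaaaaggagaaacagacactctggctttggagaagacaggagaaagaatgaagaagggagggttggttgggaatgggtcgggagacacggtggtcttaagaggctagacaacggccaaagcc
Lyl1 promoter: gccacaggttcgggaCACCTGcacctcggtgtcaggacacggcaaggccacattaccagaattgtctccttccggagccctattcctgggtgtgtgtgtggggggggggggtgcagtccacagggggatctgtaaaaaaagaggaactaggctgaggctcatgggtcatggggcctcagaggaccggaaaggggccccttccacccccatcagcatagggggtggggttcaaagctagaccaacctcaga
Lmo2 promoter: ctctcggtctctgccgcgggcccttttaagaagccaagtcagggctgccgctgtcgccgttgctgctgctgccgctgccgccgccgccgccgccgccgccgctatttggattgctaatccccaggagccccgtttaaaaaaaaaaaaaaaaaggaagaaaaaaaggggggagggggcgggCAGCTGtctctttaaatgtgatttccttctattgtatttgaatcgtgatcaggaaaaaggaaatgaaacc
Ldb1 promoter: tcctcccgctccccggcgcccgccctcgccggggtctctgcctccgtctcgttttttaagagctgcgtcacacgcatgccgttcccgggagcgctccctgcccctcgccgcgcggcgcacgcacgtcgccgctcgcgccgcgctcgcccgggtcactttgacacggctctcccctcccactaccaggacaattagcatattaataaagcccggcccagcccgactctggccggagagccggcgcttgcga
Tcf12 promoter: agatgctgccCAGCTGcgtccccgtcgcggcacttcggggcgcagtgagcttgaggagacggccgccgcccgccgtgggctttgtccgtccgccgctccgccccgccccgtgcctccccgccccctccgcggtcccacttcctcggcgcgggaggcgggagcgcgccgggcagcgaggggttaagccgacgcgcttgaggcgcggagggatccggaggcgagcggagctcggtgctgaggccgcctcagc

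Of all 45955 windows of 250 bases before coding TSSs, 62.9% held an E-box, 23.1% a GATA motif and 1.19% a composite motif. The *Tal1* promoter held 1 GATA motif and no E-box. The *Lyl1*, *Lmo2* and *Tcf12* promoters held 1 E-box each, and the *Ldb1* promoter held neither motif. The *Gata2* promoter, which is not printed, also held neither motif. A match is a description of letters and no match in a window says nothing about binding.

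Active marks are described first. H3K4me3 was called at 7 of 7 genes in WT (background 60.7% of all genes) and at 6 of 7 in Delta (60.3%). The exception in Delta was *Gata1*, giving 1 gene of 7 called in WT alone (background 1.06%) and none in the opposite class (0.684%). At a −log10 q limit of 3 the *Gata1* peak dropped out and *Lyl1* was the 1 gene called in WT alone, and with the first TSS only there were 0. For H3K27ac, 6 of 7 WT promoters were called (background 19.9%) and 2 of 7 Delta promoters (22.8%). The 4 genes called for H3K27ac in WT alone were *Tal1*, *Lyl1*, *Lmo2* and *Gata2*, against 3.43% of all genes, and none had it in Delta alone (6.37%). Among genes called in WT, 17.3% of all genes and 4 of these 6 had no H3K27ac call in Delta. *Ldb1* and *Tcf12*, which encode the widely expressed partners, had the mark in both genotypes. At the same limit of 3, the *Lmo2* H3K27ac peak dropped out and 3 genes remained called in WT alone. With the first TSS of each gene only, the *Lmo2* and *Gata2* peaks lay outside the window and 2 genes remained. At a TSS distance of 1000 bp the *Gata2* peak, 1361 bp from the nearest TSS, dropped out and 3 genes remained.

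Polycomb marks were called at the same number of genes in both genotypes. H3K27me3 was called at 5 of 7 genes in WT (background 34.8%) and 5 of 7 in Delta (32.7%), namely *Tal1*, *Lyl1*, *Lmo2*, *Tcf12* and *Gata2*. None was called in WT alone (background 7.04%) or in Delta alone (4.91%). H2AK119ub was called at *Lyl1* and *Gata2* in WT (2 of 7, background 9.21%) and at the same 2 genes in Delta (5.0%), with 0 genes in WT alone (5.08%) and 0 in Delta alone (0.863%). These H2AK119ub calls were all lost at a −log10 q limit of 3, where H3K27me3 was left at 3 genes in each genotype, with *Tcf12* in WT alone and *Tal1* in Delta alone. In the whole H2AK119ub lists, only 99 of 4922 WT and 49 of 2388 Delta peaks met that limit. For H3K27me3, 6398 of 11345 WT and 6556 of 10881 Delta peaks did. The loss of the H2AK119ub calls is thus what most of those lists show. H3K4me3 and H3K27me3 were both called at 5 of 7 genes in WT (background 32.4%) and at 5 of 7 in Delta (30.1%). In bulk chromatin, a promoter with both marks in 1 cell and a mixture of cells with 1 mark each cannot be told apart, nor can fewer marked cells and a weaker mark per cell.

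**Figure D1:**
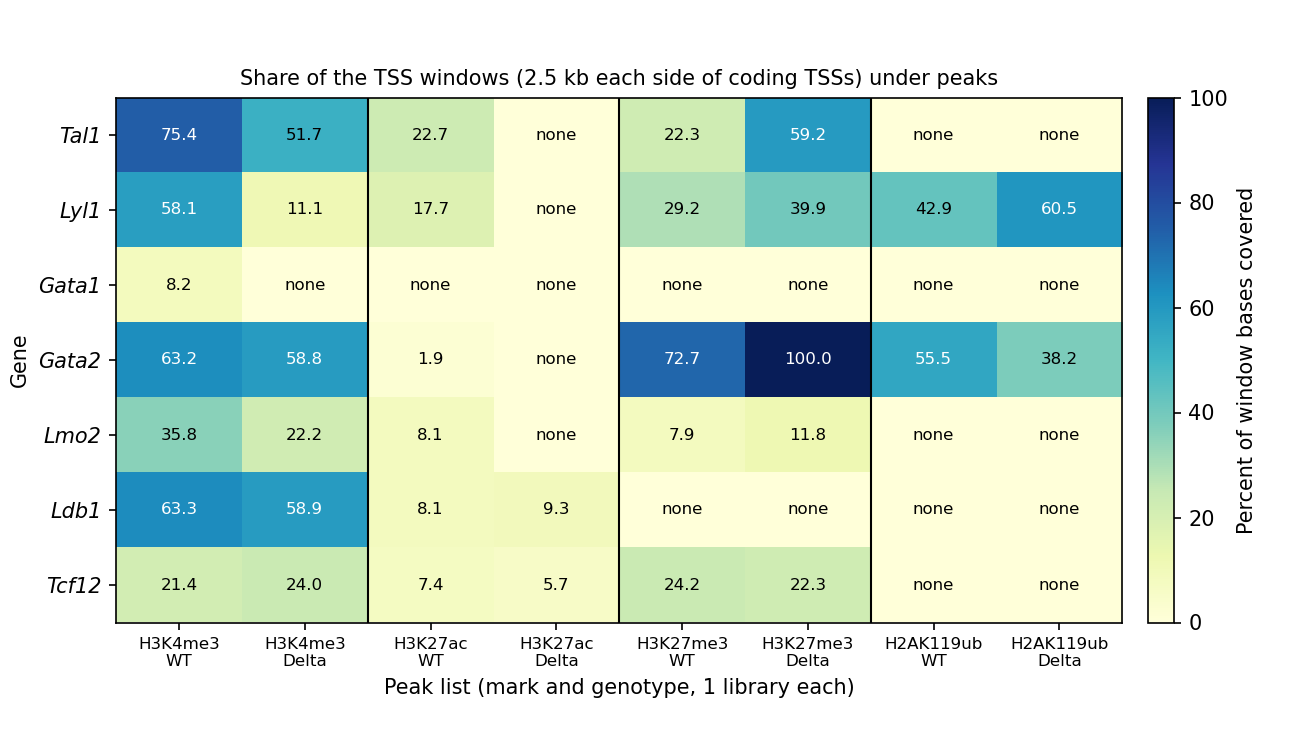
Share of each gene's TSS windows (percent of bases within 2.5 kb of a coding TSS, colour and number) under peaks of the 8 lists, with genes in rows and 1 library per column; "none" marks a window without a peak. The H3K27ac Delta column is empty for *Tal1*, *Lyl1*, *Gata2* and *Lmo2*, where the WT and Delta values of H3K27me3 are 22.3 and 59.2%, 29.2 and 39.9%, 72.7 and 100%, and 7.89 and 11.8%.

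For H3K4me3 and H3K27me3, how far the peaks reached over the TSS windows differed more than the calls did. Among genes called for H3K4me3 in both genotypes, the mark covered less of the windows in Delta at 5 of 6 complex genes (background 66.9%), the exception being *Tcf12*. The median difference, Delta minus WT, was −9.02 percentage points over the 6 genes and −1.57 over all 13324 genes called in both. H3K27me3 covered more in Delta at 4 of 5 complex genes (background 44.5%), again all but *Tcf12*. Its median difference was 10.8 percentage points over the 5 genes and 0 over all 6216. These are peak extents without spike-in scaling. With that scaling and by western blot, the study reported globally lower H3K27me3 and H2AK119ub in the Delta cells. Peak extents can neither show nor contradict such a change in amount. Of the 768 genes with H3K27ac in WT alone, 112 also had less H3K4me3 and more H3K27me3 in Delta (0.501% of all genes). These 112 include *Tal1*, *Lyl1*, *Lmo2* and *Gata2*. The class was not a planned count and follows the pattern of these same 4 genes, so its share is a description only. Summed over the 7 genes, peak lengths in WT and Delta were 35261 and 25634 bp for H3K4me3 and 6006 and 1538 bp for H3K27ac. They were 23616 and 46689 bp for H3K27me3 and 9208 and 12515 bp for H2AK119ub. The H3K27me3 total was governed by *Lyl1* and *Gata2*, whose peaks were the longest.

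**Figure D2:**
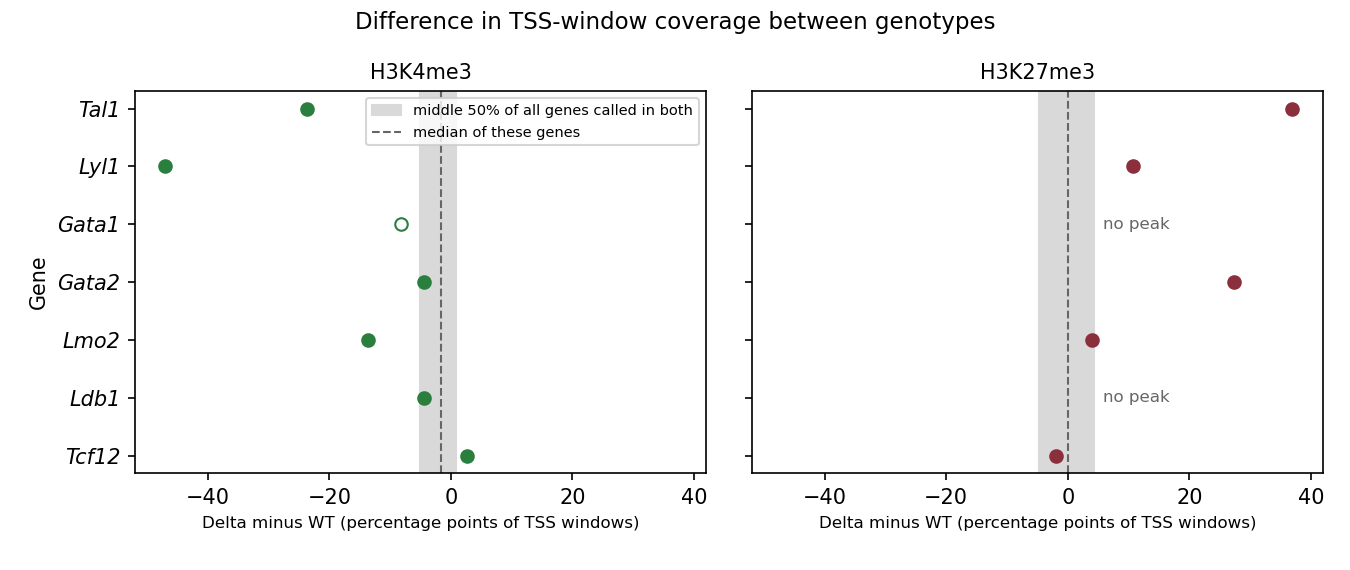
Delta minus WT difference in the share of TSS windows under H3K4me3 (left) and H3K27me3 (right) peaks, in percentage points, with 1 point per gene, grey for the middle 50% of all genes called in both genotypes and a dashed line at their median. *Lyl1* lies lowest for H3K4me3 at −47.1 and *Tal1* highest for H3K27me3 at 36.9; the open circle is *Gata1*, which had no Delta peak.

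*Tal1* (ENSMUSG00000028717.6, chr4:114729031-114744360, plus strand, 4 coding TSSs) carried both active marks and H3K27me3 in WT. H3K4me3 formed a 6092 bp peak over all its TSSs and a 3523 bp peak further into the gene, with fold enrichments over local background of 7.87 and 7.97. In Delta the corresponding peaks were 4175 and 2283 bp long, with fold enrichments of 4.72 and 4.36. These values lay above 68.0 and 69.4% of the peaks of the WT list, and above 28.0 and 21.5% of the Delta list. The peaks were thus shorter in Delta and stood lower in their own list. They covered 75.4% of the TSS windows in WT and 51.7% in Delta.

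H3K27ac peaks at *Tal1* were called in WT alone. A 1833 bp peak ran from −172 to 1660 bp relative to the first TSS, with a fold enrichment of 3.93 and a −log10 q of 3.38. It was longer than 96.7% of WT H3K27ac peaks. A 336 bp peak lay 6525 to 6860 bp into the gene. In Delta, the nearest H3K27ac peak lay 56.1 kb from a *Tal1* TSS. Around *Tal1*, H3K27ac had 3 further peaks within 50 kb of the gene in WT and 0 in Delta. Relative to the first TSS they lay at −4518 to −3066 bp (1453 bp long), 18313 to 19128 bp (816 bp) and 38879 to 39962 bp (1084 bp). The gene is known to be driven in blood cells by enhancers upstream and downstream of it. The first peak lies between *Stil* and *Tal1*. The last lies past the end of *Pdzk1ip1*, which spans 32282 to 37473 bp, and before *Cyp4x1*.

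The most distant of these *Tal1* peaks is the one that holds the composite motif printed above. It held 7 E-boxes and 3 GATA motifs in all. Of the central 300 bases of all 4571 WT H3K27ac peaks, 0.853% held a composite motif (39 peaks), as did this peak, and of the 5269 Delta peaks 0.361% (19 peaks). In Delta a 245 bp H3K4me3 peak lay over the same motif, 39285 to 39529 bp after the TSS, with a fold enrichment of 3.57 and a −log10 q of 2.25. No WT H3K4me3 peak lay there.

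H3K27me3 peaks at *Tal1* covered more bases in Delta. In WT there were peaks of 1800 and 1378 bp, with fold enrichments of 3.22 and 3.44. In Delta there were peaks of 3790, 758 and 1218 bp, with fold enrichments of 3.59, 3.08 and 3.03. The share of the TSS windows under them was 22.3% in WT and 59.2% in Delta. The longest Delta peak covered the whole 1800 bp WT peak and ran on over the first TSS, starting at −1217 bp. The 1378 bp WT peak within the gene had no counterpart in Delta. All these peaks were weak, with −log10 q values between 1.84 and 3.45. H2AK119ub was seen in WT alone, as an 852 bp peak in the gene body outside the TSS windows with a −log10 q of 1.77.

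**Figure D3:**
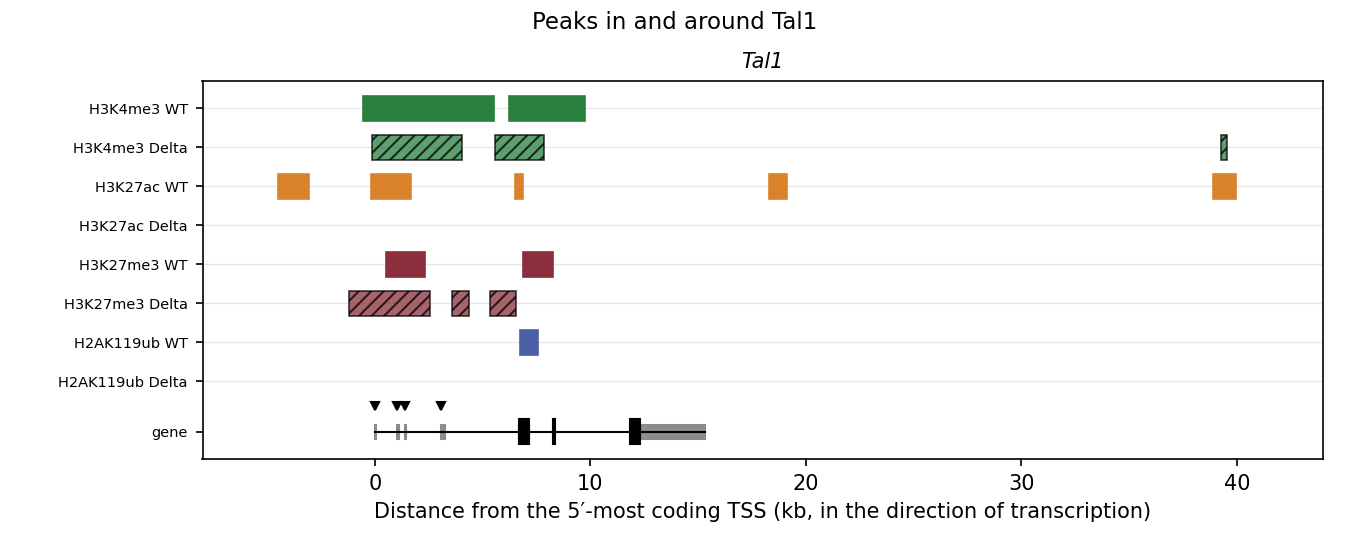
Peaks in and around *Tal1* by distance from its first coding TSS (kb, in the direction of transcription), 1 row per list, solid for WT and hatched for Delta; the bottom row shows the gene with coding exons in black, untranslated exons in grey and TSSs as triangles. The H3K27ac WT row holds 5 peaks and the H3K27ac Delta row none.

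The deletion itself could not be seen in the peak lists. As a guide to where the bHLH region is encoded, the conserved stretch shared by SCL and LYL1 was located by translating the annotated coding sequences. The best match of 50 residues had 44 identical residues (88.0%). It spans SCL residues 185 to 234 of 329 and lies in the last exon, at chr4:114740893-114741042, 11862 to 12011 bp after the first TSS. No list had a peak there in either genotype. The nearest peaks were a WT H3K4me3 peak 2116 bp away and a Delta H3K4me3 peak 3998 bp away, so the absence of a peak there is no check of the label.

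*Lyl1* (ENSMUSG00000034041.4, chr8:87225356-87228614, plus strand, 1 TSS) had the greatest difference in H3K4me3 coverage of the 7 genes, from 58.1% of the TSS window in WT to 11.1% in Delta. A 2770 bp WT peak that started 65 bp before the TSS (fold enrichment 4.40, −log10 q 7.40) stood against Delta peaks of 553 and 469 bp (3.62 and 3.39, with −log10 q of 2.65 and 2.51). A WT H3K27ac peak of 887 bp, from −354 to 532 bp around the TSS, had a fold enrichment of 4.10 and a −log10 q of 4.42. It held 2 GATA motifs, and 14.5% of the central 300 bases of WT H3K27ac peaks held at least 1. The nearest Delta H3K27ac peak was 11.7 kb away.

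Polycomb marks ran past the 3′ end of *Lyl1*. The H3K27me3 peak was 10064 bp long in WT and 18494 bp in Delta, with fold enrichments of 4.79 and 7.32. Its start moved from 1043 to 504 bp after the TSS, and coverage of the TSS window went from 29.2 to 39.9%. H2AK119ub had peaks of 269 and 2400 bp in WT and of 1046 and 6379 bp in Delta, covering 42.9 and 60.5% of the window. Most of the added length lay outside *Lyl1*, over the overlapping gene model of *Nfix*, and the upstream peaks overlapped *Trmt1*, so these peaks cannot be credited to *Lyl1* alone. Calls were also frequent on the whole of chromosome 8. H2AK119ub was called at 18.9% of its genes in WT and 12.6% in Delta, against 9.13 and 4.83% on the other autosomes, and H3K27me3 at 45.7 and 42.9% against 35.4 and 33.2%. The part of this chromosome-wide difference in the *Lyl1* peaks was not tested.

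*Gata2* (ENSMUSG00000015053.8, chr6:88143885-88157024, plus strand, 2 coding TSSs) had the highest H3K27me3 coverage of TSS windows of the 7 genes in both genotypes. In WT, H3K27me3 peaks of 5599 and 1507 bp covered 72.7% of its TSS windows. In Delta, a single 15273 bp peak ran from −6698 to 8574 bp around the first TSS and covered 100% of them, and a further 3655 bp peak lay over the 3′ exons. Fold enrichments were 4.20 and 3.27 in WT and 6.35 and 4.04 in Delta. H2AK119ub went the other way in the TSS windows, with 55.5% covered in WT and 38.2% in Delta. It formed peaks of 3454 and 2233 bp in WT and of 1399, 484, 2922 and 285 bp in Delta. Thus more of the windows lay under H3K27me3 and less under H2AK119ub in Delta at *Gata2*, while both covered more at *Lyl1*. The direction of the H2AK119ub lengths turned when peaks up to 3000 bp apart were joined. The summed difference, Delta minus WT, went from −597 to 3474 bp at *Gata2* and from 4756 to −43903 bp at *Lyl1*.

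H3K4me3 peaks at *Gata2* were of similar length, 992 and 6804 bp in WT and 878 and 6325 bp in Delta. A further 331 bp WT peak, 9710 to 10040 bp after the first TSS, had no Delta counterpart. There it overlapped a 301 bp WT H3K27ac peak (9860 to 10160 bp, fold enrichment 4.05). A 189 bp WT H3K27ac peak lay 3224 to 3412 bp after the first TSS, with a fold enrichment of 4.35. It was among the shortest of its list, with 4.11% of WT H3K27ac peaks shorter. The nearest Delta H3K27ac peak was 148.7 kb from a *Gata2* TSS. The intron site with both WT active peaks was covered by the 3655 bp H3K27me3 peak in Delta, and the composite motif printed above lies 548 bp before the WT H3K27ac peak.

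*Lmo2* (ENSMUSG00000032698.8, chr2:103798143-103822035, plus strand) has 9 coding TSSs in 2 groups, and all its peaks were at the downstream group, 11542 to 12301 bp from the first. H3K4me3 was 4238 bp long in WT and 2393 bp in Delta, with fold enrichments of 8.45 and 6.01. An 876 bp H3K27ac peak (fold enrichment 4.08, −log10 q 2.99) was present in WT, and the nearest Delta peak was 57.7 kb away. H3K27me3 was 850 bp long in WT and 1272 bp in Delta and covered 7.89 and 11.8% of the windows. No H2AK119ub peak was assigned to the gene. Its peaks also overlap the gene model 4931422A03Rik.

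**Figure D4:**
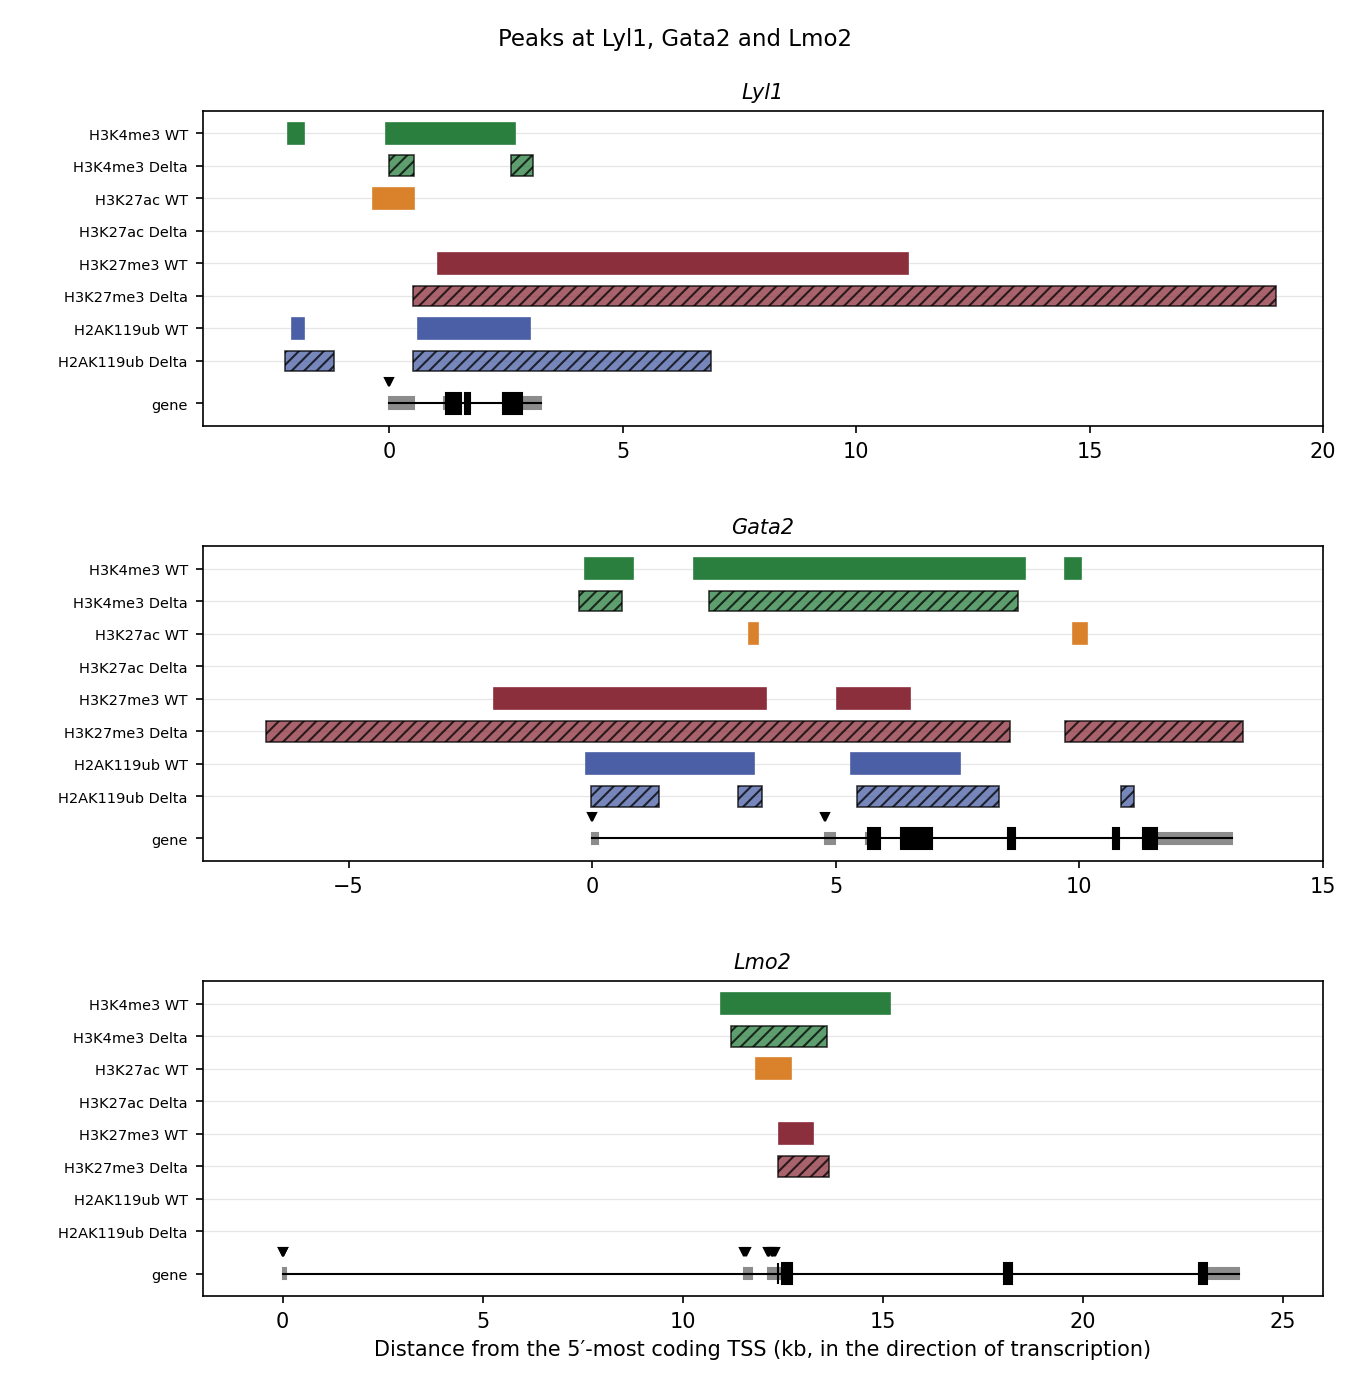
Peaks at *Lyl1*, *Gata2* and *Lmo2* by distance from the first coding TSS (kb, in the direction of transcription), solid for WT and hatched for Delta, with the gene in the bottom row of each panel. In each gene the H3K27ac Delta row is empty and the H3K27me3 Delta row reaches further than the WT row.

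*Ldb1* (ENSMUSG00000025223.8, chr19:46107083-46119704, minus strand, 5 coding TSSs) carried active marks in both genotypes and no Polycomb peak. H3K4me3 peaks at its first and second groups of TSSs were 4288 and 2618 bp long in WT and 3085 and 3069 bp in Delta, so the first was shorter and the second longer in Delta. Its H3K27ac peak was 844 bp in WT and 969 bp in Delta, with fold enrichments of 3.56 and 3.90. These −log10 q values, 1.90 and 2.59, were low, and both would be lost at a limit of 3. The peaks also reach the neighbouring gene *Pprc1*.

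*Tcf12* (ENSMUSG00000032228.8, chr9:71692059-71959626, minus strand, 2 coding TSSs) differed least in TSS-window coverage among the genes with H3K27me3. All its peaks were at the first TSS. H3K4me3 was 2136 bp long in WT and 2404 bp in Delta, with fold enrichments of 10.3 and 9.18, above 92.7 and 94.4% of the peaks of its lists. H3K27ac was 740 and 569 bp long, with fold enrichments of 4.28 in WT and 6.21 in Delta, and the Delta value lay above 97.3% of its list. H3K27me3 was 2418 and 2229 bp long and covered 24.2 and 22.3% of the TSS windows. Of the genes with H3K27ac and H3K27me3 in WT, this is the 1 gene of the complex that had both in Delta.

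*Gata1* (ENSMUSG00000031162.8, chrX:7536386-7555197, minus strand, 3 coding TSSs) had a single peak in the 8 lists. It was a WT H3K4me3 peak of 1129 bp, 270 bp downstream of the second TSS, with a fold enrichment of 3.65 and a −log10 q of 2.67. Only 11.7% of WT H3K4me3 peaks had a lower fold enrichment. The nearest H3K27ac peak lay 121.8 kb from a TSS in WT and 96.3 kb in Delta. Calls were rarer on the X chromosome as a whole than on autosomes other than chromosome 8. In WT and Delta, H3K4me3 was called at 45.0 and 44.4% of its 932 genes, against 61.0 and 60.7%. H3K27ac was called at 3.0 and 4.61%, against 20.2 and 23.2%, and H3K27me3 at 11.9 and 10.8%, against 35.4 and 33.2%. H2AK119ub was called at 0 of 932 in both, against 9.13 and 4.83%. The part of this in the *Gata1* result was not tested. The windows of 1001 bp around the *Gata1* TSSs were also poor in CpG, with observed over expected ratios of 0.306, 0.229 and 0.133 against a median of 0.541 over all coding TSSs. At the first TSSs of *Tal1*, *Gata2*, *Ldb1* and *Tcf12* the ratios were 0.804, 0.767, 0.875 and 0.990. At *Lyl1* the ratio was 0.396, and at *Lmo2* it was 0.165 at the first TSS, without peaks, and 0.905 at the TSS nearest to the WT H3K27ac peak.

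**Figure D5:**
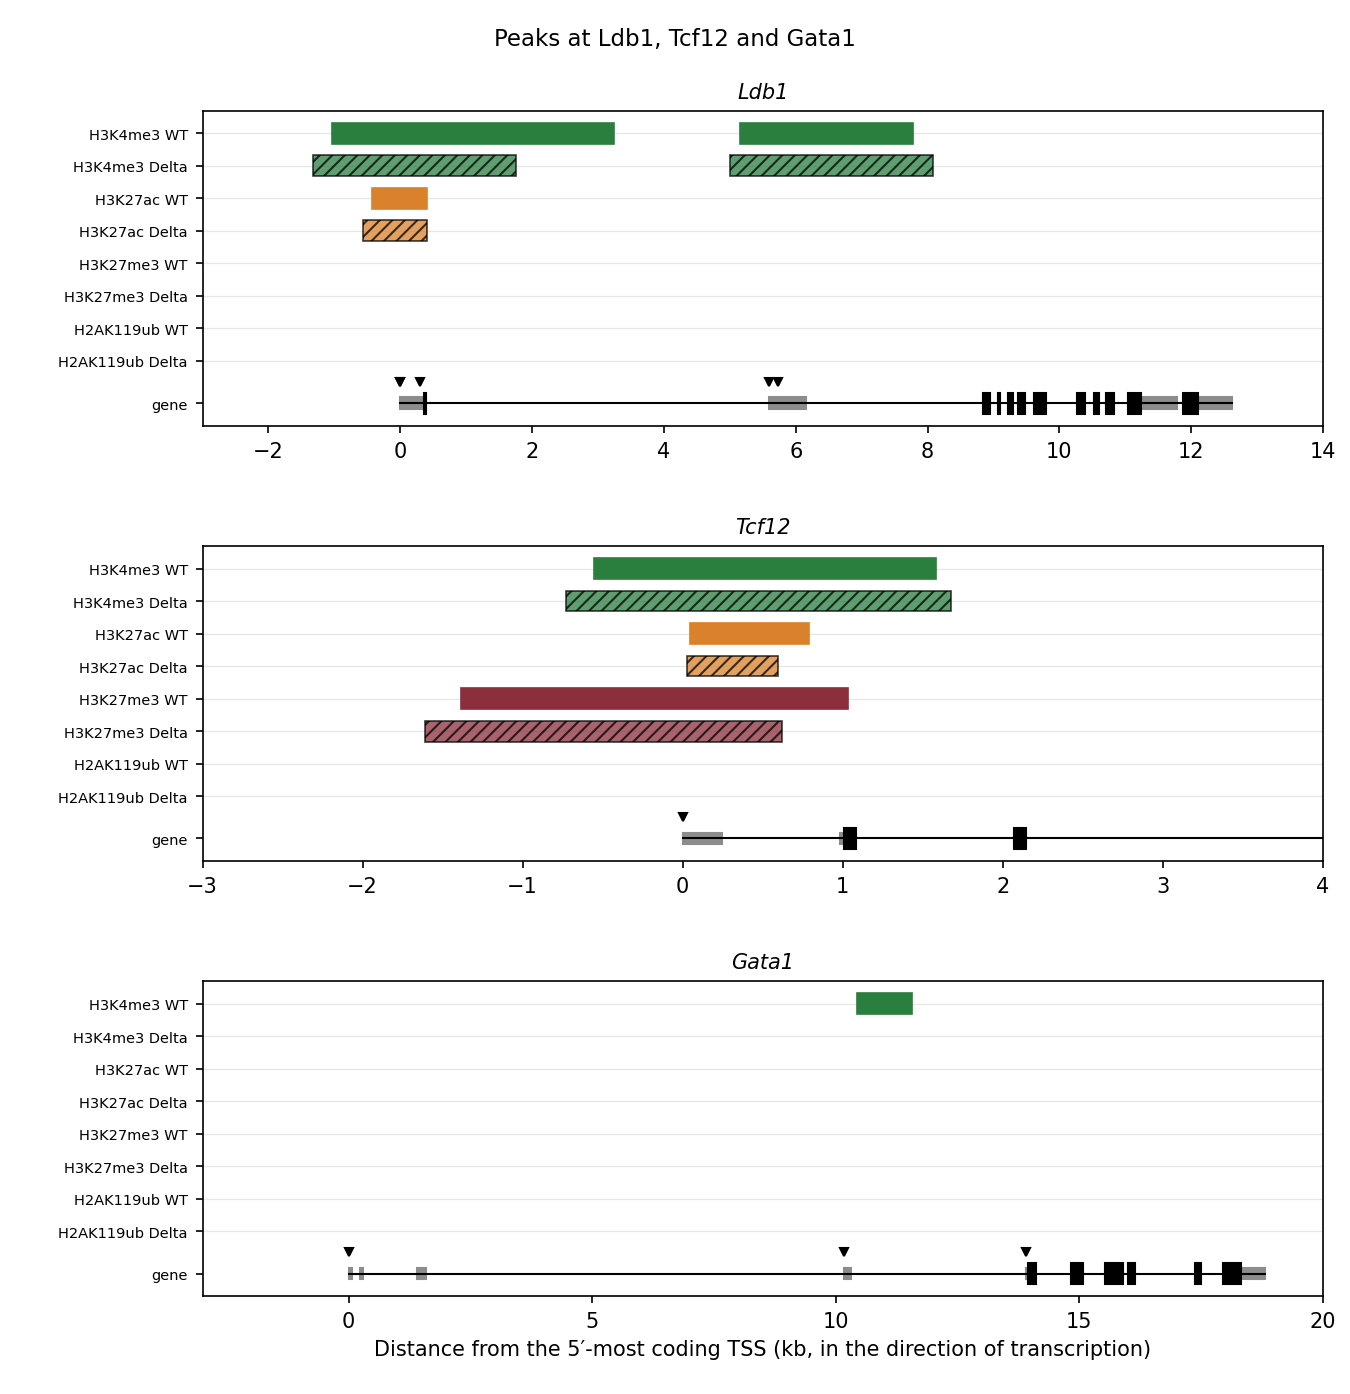
Peaks at *Ldb1*, *Tcf12* (5′ end only) and *Gata1* by distance from the first coding TSS (kb, in the direction of transcription), solid for WT and hatched for Delta, with the gene in the bottom row of each panel. *Ldb1* and *Tcf12* have H3K27ac peaks in both genotypes, and *Gata1* has 1 peak in all.

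How strong a WT H3K27ac peak was went with whether a Delta peak overlapped it across the genome. When WT peaks were ranked by −log10 q and divided into 4 sets of equal size, from the lowest set to the highest 51.4, 69.9, 79.4 and 93.3% had a Delta counterpart. The 6 peaks of *Tal1*, *Lyl1*, *Lmo2* and *Gata2* without a counterpart were spread over the lower 3 sets. The *Ldb1* peak, in the lowest set, had one, and so had the *Tcf12* peak, in the highest set.

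Patterns of calls were next compared with those of all genes. *Tal1* and *Lmo2* had 1 pattern (H3K4me3 and H3K27me3 in both, H3K27ac in WT alone, no H2AK119ub at a TSS). Each shared it with 130 other genes, its fellow complex gene included. *Lyl1* and *Gata2* had the same with H2AK119ub in both, and each shared that with 8 other genes, again with its fellow included. The patterns of *Ldb1* and *Tcf12* were common, at 1162 and 1252 other genes, and that of *Gata1* was found at 100 others. By the mean absolute difference in coverage of TSS windows over the 8 lists, the genes most like *Tal1* were *Zc3hav1* (3.86 percentage points), *Gadd45g* (4.31) and *Lgr5* (5.06). The nearest to *Lyl1* was *Cbfa2t3* (11.9), which encodes the co-repressor ETO2. Those nearest to *Gata2*, *Lmo2*, *Ldb1*, *Tcf12* and *Gata1* were *Lhx1* (5.90), 8430432A02Rik (1.21), 2610021K21Rik (1.22), Gm17324 (1.82) and *Ctrl* (0.0144). *Lhx1* differed from *Gata2* in 1 of the 8 calls, since it had no H3K27ac in either genotype.

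A further 20 genes of the same families were listed for comparison. H3K27ac was called at 6 of them in WT (background 19.9%) and 8 in Delta (22.8%), with 0 in WT alone (3.43%) and 2, *Ssbp2* (an LDB1-binding protein) and *Gata6* (a GATA factor of heart and endoderm), in Delta alone (6.37%). With so low a background for WT alone, a count of 0 among 20 genes is near it. H3K4me3 was called at 19 in WT (background 60.7%) and 18 in Delta (60.3%), the difference being *Ldb2*, a relative of *Ldb1* (WT alone, 1.06%). H3K27me3 was called at 16 in WT (background 34.8%) and 17 in Delta (32.7%), where *Lmo4* was added (Delta alone, 4.91%). Of the 16 called in both, H3K27me3 covered less of the windows in Delta at 11 (background 45.7%) and more at 5 (44.5%). By family, coverage was lower in Delta at 4 of 4 GATA paralogues (*Gata3*, *Gata4*, *Gata5* and *Gata6*) and at 4 of 4 *Id* genes, whose products block E proteins. It was higher at 3 of 3 SCL-like bHLH genes (*Tal2*, *Nhlh1* and *Nhlh2*). *Gata6* went from 63.8 to 30.2% and *Tal2* from 65.5 to 93.0%, beside 72.7 to 100% at *Gata2*. For H2AK119ub there were 6 called genes in WT against 3 in Delta, and the calls differed at *Lmo1*, *Ssbp3*, *Nhlh2* and *Gata5* (WT alone) and at *Gata3* (Delta alone).

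The labelled cell type was set against 19 marker genes, bearing in mind that peaks are not expression. Of 5 genes of blood and endothelial mesoderm, H3K4me3 was called at *Kdr*, *Etv2*, *Fli1* and *Cdh5* in WT and at the first 3 in Delta. H3K27ac was called at *Fli1* in WT alone, and at no other marker in either genotype. H3K27me3 covered more of the windows in Delta at *Kdr* (6.08 and 13.0%) and *Fli1* (58.8 and 100%), and less at *Mesp1* (71.9 and 41.2%) and *Pou5f1* (19.8 and 2.75%). It covered 100% in both at the other 5 markers called. The cardiac genes *Mesp1*, *Nkx2-5* and *Tbx5* had H3K4me3, H3K27me3 and H2AK119ub in both genotypes. The neural genes *Pax6* and *Olig2* and the gut gene *Cdx2* had the same marks in both as well. Of the paraxial genes, *Tbx6* alone had a peak, of H3K4me3 in both. Of the pluripotency genes, *Pou5f1* had H3K4me3 in Delta alone, *Zfp42* had it in both genotypes and *Nanog* was called for no mark. *Alb* and *Afp* of the liver were also called for no mark. A further neural marker, *Sox1*, was not found by that name in the gene set and is not among the 19. The part of a different mixture of cells in the results at the complex genes was not tested.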

How the data were processed

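The authors profiled sorted mCherry-positive cells of day 4 embryoid bodies by ChIP-Rx, with 10 libraries, of which 8 had a peak list. The reads of the 2 inputs were not analysed here. According to the study's methods and the submitters' processing notes, reads were trimmed with Trim Galore and aligned to mm9 and dm3 with Bowtie, and broad peaks were called per library with MACS2 2.0.10 against the input of the same genotype. Spike-in factors scaled tag densities and not the peak calls, so the lists cannot show a global change in a mark. The deposited values are a fold enrichment (a ratio to local background), the −log10 of the p-value and q-value, and a score deposited by the authors, which was not used. The lists hold no reads, the read totals the study gives were not used here, and nothing can be said of regions below the authors' threshold. Replicates were not pooled, since there was 1 library per group.

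Groups came from sample titles. Peaks were assigned to genes of GENCODE M1 (NCBIM37, which is mm9) by an overlap of at least 1 bp. The overlap code was tested on simulated data, with 0 of 200 calls wrong, and checked against bedtools 2.31.1 in 8 lists with 0 differences. Python 3.11.15, pandas 2.3.3 and numpy 2.4.6 were used. Coordinates are 1-based. Motifs were searched on both strands of NCBIM37. The genes, the lists and the rule for similar genes (smallest mean difference in window coverage, 3 genes for *Tal1* and 1 for each other member) were chosen with earlier results of these data known. Alternatives were limits of 3 on −log10 q and on fold enrichment, a TSS distance of 1000 bp, joining of peaks up to 3000 bp apart, 50% of the peak inside the window, and the first TSS only.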

Additional observations from a re-analysis of the deposited data

How the results depend on the processing

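The 16 counts of complex genes called, by mark, genotype and genotype alone, were recomputed under 6 alternatives, and 86 of 96 values stayed within 1.5 times the value reported. Several counts, among them every count in Delta alone, were 0 to begin with and stayed in range by remaining 0. The 86 is therefore no measure of robustness. The alternatives were not equally strict. Of the 10 counts that moved further, 7 were under the −log10 q limit, 2 under the first TSS only and 1 under a TSS distance of 1000 bp. The fold limit, joining and 50% rules moved none. The fold limit could hardly do so, since the only assigned peak below it was a WT H3K4me3 peak of *Lyl1* at 2.88. With a −log10 q of at least 3, H3K27ac in Delta was called at 1 gene, H3K27me3 at 3 in WT and 3 in Delta, with 1 gene in WT alone and 1 in Delta alone, and H2AK119ub at 0 in WT and 0 in Delta. Few H2AK119ub peaks in the whole lists met this limit, 99 of 4922 in WT and 49 of 2388 in Delta. With a TSS distance of 1000 bp, H3K27me3 was called in Delta alone at 1 gene, and H3K27ac in WT alone at 3. With the first TSS only, H3K4me3 was called in WT alone at 0 genes and H3K27ac in WT alone at 2, because the peaks lay at later TSSs. Differences in summed peak length, Delta minus WT, were 0 bp under a −log10 q limit of 3 for *Gata1* H3K4me3, *Lmo2* and *Ldb1* H3K27ac, *Lmo2* H3K27me3 and H2AK119ub at *Tal1*, *Lyl1* and *Gata2*, and for *Lyl1* H3K27me3 with 50% of the peak inside. The direction turned in H2AK119ub. That difference was −43903 bp at *Lyl1* and 3474 bp at *Gata2* with peaks up to 3000 bp apart joined, and −1623 bp at *Lyl1* with 50% of the peak inside. H2AK119ub directions at these genes therefore rest on how neighbouring peaks are counted. No paired analysis was possible because each mark had a single library in each genotype. Depth sets what a list can hold, and a gene without a peak may carry the mark below the authors' threshold.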
